A study of Mus musculus with 12 samples.

Results

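Layer 6 intratelencephalic (L6 IT) neurons of the juvenile mouse cortex were selected from single-nucleus RNA sequencing as nuclei with at least 4 UMIs (unique molecular identifiers, each standing for 1 captured RNA molecule) summed over Dnah14, Blnk, Galnt14 and Sulf1. They also carried at least 1 UMI of Slc17a7, the vesicular glutamate transporter of cortical excitatory neurons, and none of Gad1 or Gad2, which make GABA. At most 1 UMI each was allowed of Foxp2, Rorb and Tshz2, genes that mark neurons of other layers or projections. This gate held 1872 of the 71914 barcodes that had at most 12000 UMIs and at most 1% mitochondrial UMIs, out of 78743 barcodes in all. Shares are given of the 23296 excitatory nuclei, which are the barcodes within the same limits with Slc17a7 and without Gad1 or Gad2 and include the gated nuclei. Levels are set beside those in the other excitatory nuclei.

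The cortices came from 12 mice at postnatal day 21 (P21), 6 wild type (WT) and 6 heterozygous for the frameshift allele Myt1l S710fsX (MYT1L Het), each with 3 males and 3 females. The line is kept on C57BL/6J by crossing Het with WT mice, and the animals came from 4 litters. According to the study's methods, pups of this cohort received AAV9 vectors of the Calling Cards system (hyPB and H2b-tdT-SRT) around birth, so all animals of both genotypes carried virus. The animals were separate mice, prepared together at this age with a combinatorial barcoding kit. The allele is present in every cell of a Het, so an effect within these neurons and an effect of their surroundings cannot be told apart.

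Intratelencephalic neurons are glutamatergic cells whose axons stay within the cortex and striatum, in contrast to the corticothalamic cells that share layer 6 with them. They exchange signals between cortical areas and hemispheres. MYT1L is a zinc finger transcription factor of postmitotic neurons that binds DNA at an AAGTT core and is known for silencing genes of other lineages during neuronal differentiation.

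The gated nuclei numbered 70, 144 and 187 in WT males, 93, 113 and 144 in WT females, 157, 169 and 174 in Het males and 247, 167 and 207 in Het females. Their counts summed to between 443480 and 1824602 per animal. No barcode sequence occurred in more than 1 library. WT male 1 had the fewest gated nuclei. Its median of 5817 UMIs in them was the lowest of the WT animals, with the next at 7344, and below the 7290 over all gated nuclei. Het male 2 was close to it at 5845 UMIs, and its other excitatory nuclei were shallower than those of WT male 1 (4840 against 5510 UMIs). The genotype comparisons of gated nuclei and of cluster 3 were repeated without WT male 1. Of the gated nuclei, 1262 (67.4%) held more than 6000 UMIs, the upper limit in the study's methods, and 423 lay within all of the study's limits.

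The values of the 4 selecting genes describe the gate and are no finding. Galnt14, a glycosyltransferase that starts O-linked glycans, had a UMI in 89.0% of gated nuclei and 19.0% of the other excitatory nuclei. Sulf1, an extracellular sulfatase that trims heparan sulfate, was detected in 48.9% and 11.4%, Dnah14, an axonemal dynein heavy chain, in 43.6% and 6.72%, and Blnk, an adaptor protein known from B cell receptor signalling, in 25.7% and 5.13%. In CPM, the UMIs of a gene per 1000000 UMIs, Galnt14 averaged 561 in gated nuclei, Sulf1 207, Dnah14 186 and Blnk 66.6. Galnt14 therefore supplied most of the UMIs that passed the threshold. Only 3.90% of gated nuclei held all 4 genes and 26.0% held just 1 of them. The median sum was 6 UMIs and the highest 40. Just inside the threshold lay 430 nuclei with at least 4 and under 5 UMIs, and just outside lay 636 nuclei with at least 3 and under 4, with median depths of 6910 and 6118 UMIs. Before the limits on Foxp2, Rorb and Tshz2, 2670 excitatory nuclei passed the sum, of which 475 exceeded the limit on Foxp2, 201 that on Rorb and 204 that on Tshz2.

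To check the name against other genes, all excitatory nuclei were grouped into 22 clusters from variable genes that did not include the genes of the gate. The gated nuclei did not form a single population. Cluster 3 held 1046 of them (55.9%), and they made up 49.1% of its 2132 nuclei. Its leading genes were Pld5, Npsr1, Sema3e, Bmpr1b, Cdh9 and Chrm2. Gated nuclei in cluster 3 had only 11.8 CPM of Tle4 and 53.3 CPM of Hs3st4, both genes of corticothalamic neurons, but the corticothalamic gene Ntsr1 was at 9.56 CPM, above its 4.24 CPM in gated nuclei of cluster 6 and near its 8.57 CPM in 1557 nuclei gated on Foxp2, a gene of layer 6 corticothalamic neurons. They also had the highest Osr1 level of the gated groups, at 9.98 CPM, and Osr1 is a zinc finger gene used as a marker of L6 IT neurons that the gate did not use. Of the other such markers, Penk, Col27a1, Fst and Col18a1 were also highest there, at 6.35 CPM or less. Col23a1 was highest in gated nuclei of cluster 6 (126 against 90.9 CPM in cluster 3). Adamts2 (58.7 against 55.0 CPM), Oprk1 (217 against 15.7 CPM) and Tgfb1 (0.720 against 0.393 CPM) were highest in those of cluster 16.

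Other gated nuclei went against the label. Cluster 6 held 244 (13.0%). Svil and Cdh18 led it, and Hs3st4 was further down among its leading genes. Gated nuclei in it had 4334 CPM of Hs3st4 and 585 CPM of Tle4. The corticothalamic genes Syt6 (12.4 CPM) and Rprm (1.04 CPM) were below their 182 and 7.29 CPM in the Foxp2 nuclei. Genes of layer 6b were also present, with 77.6 CPM of Moxd1, 52.8 CPM of Ccn2, 9.32 CPM of Cplx3 and 4.14 CPM of Nxph4. These nuclei passed mostly on Galnt14 (435 CPM) and Sulf1 (343 CPM), with Blnk at 3.28 CPM. Cluster 16 held 187 (9.99%), which were 56.2% of its nuclei. It was led by Col11a1, Gfra1 and Cntnap3, and its gated nuclei had 626 CPM of Synpr, 319 CPM of Nr4a2, 275 CPM of Gnb4 and 1017 CPM of Ntng2, genes shared by the claustrum and the Car3 subtype of L6 IT neurons. The remaining 395 were spread over other clusters. The largest parts were 68 in cluster 5, led by Ndst4, 61 in cluster 1, led by Enpp2, 44 in cluster 8, led by Ptprm, and 42 in cluster 13, led by Zbtb20. Smaller parts included 18 in a cluster led by the microglial genes Mertk, Inpp5d and Ly86 and 13 in one led by the oligodendrocyte genes Mobp and St18. The selected cells are called gated nuclei below for this reason.

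**Figure D1:**
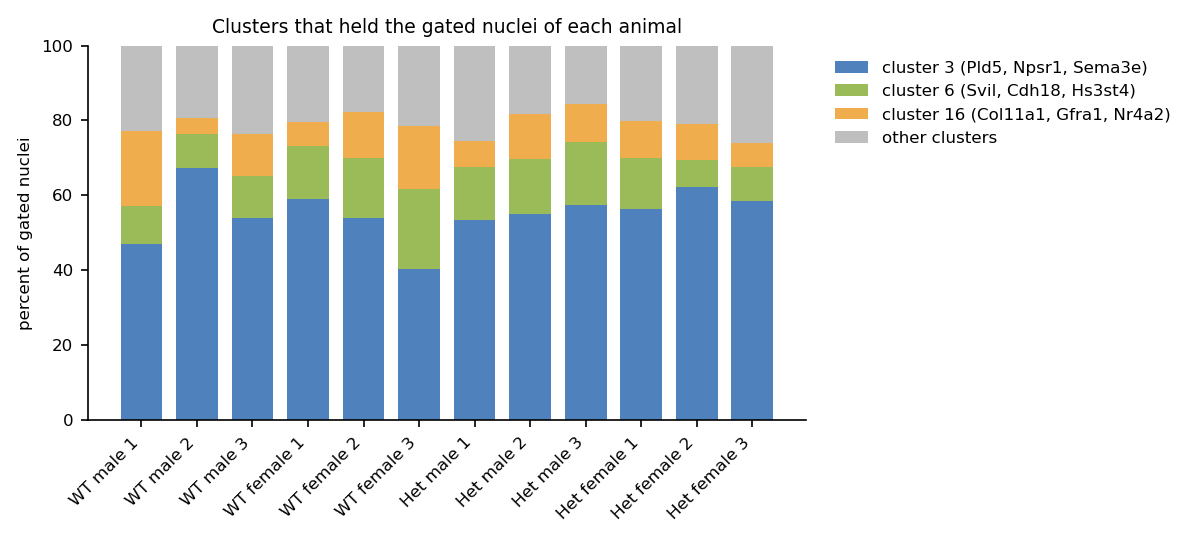
Percent of the gated nuclei of each of the 12 animals (bars) that fell into cluster 3, cluster 6, cluster 16 or any other cluster. Cluster 3 held 40.3 to 67.4% of gated nuclei in WT and 53.5 to 62.3% in Het animals.

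Over both sexes together, no difference between the genotypes in this makeup was detectable. The share of gated nuclei in cluster 3 was 53.7 ± 9.38% in WT and 57.2 ± 3.05% in Het animals (SD, n = 6 each, two-sided exact permutation p = 0.418). For cluster 6 the shares were 13.6 ± 4.65% and 12.6 ± 3.63% (exact permutation p = 0.684), but the sexes moved in opposite directions. In males the cluster 6 share was 10.1 ± 1.10% in WT and 15.2 ± 1.36% in Het animals, and in females 17.1 ± 3.92% and 10 ± 3.37%. The genotypes did not overlap in either sex (exact permutation p = 0.1 in each, the smallest that 3 against 3 animals can give). For cluster 16 they were 11.8 ± 5.97% and 9.13 ± 2.10% (exact permutation p = 0.325). The plot of cluster makeup shows that single WT animals varied more than the genotypes did: cluster 16 held 20% of gated nuclei in WT male 1 and 4.17% in WT male 2. Without WT male 1 the WT shares were 55.0 ± 9.86% for cluster 3, 14.3 ± 4.80% for cluster 6 and 10.2 ± 4.95% for cluster 16 (exact permutation p = 0.643, 0.513 and 0.654).

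Against the other excitatory nuclei, 7 of the 9 L6 IT markers that the gate did not use were higher on average in gated nuclei. This was not particular to L6 IT markers. Each measured layer 6b gene was higher as well, among them Moxd1 (12.1 against 3.56 CPM) and Ccn2 (7.29 against 1.92 CPM). So was each measured gene of the claustrum and Car3 list, among them Ntng2 (229 against 56.8 CPM) and Synpr (100 against 73.0 CPM). Because the gate itself chose these cells, the levels are described without a test. Osr1 averaged 5.97 CPM in gated nuclei and 0.604 CPM in the others and was higher in 12 of 12 animals, but only 4.38% of gated nuclei had a UMI of it. Oprk1, the kappa opioid receptor, averaged 32.3 and 1.65 CPM, and its level was 217 CPM in gated nuclei of cluster 16 and 15.7 CPM in those of cluster 3. Adamts2, a procollagen-processing protease, averaged 45.4 and 27.1 CPM. Fst, with 0.688 CPM, and Tgfb1, with 0.394 CPM, were at the edge of detection and not higher. The zinc transporter gene Slc30a3, which IT neurons of other layers also use, was lower, at 16.3 against 22.9 CPM. The corticothalamic gene Syt6 stood at 6.01 CPM, compared with 182 CPM in the Foxp2 nuclei. The Foxp2 nuclei were close to the gated nuclei in the 9 L6 IT markers summed, with medians of 146 CPM in WT and 198 CPM in Het animals against 186 and 181 CPM in gated nuclei. Col23a1, a collagen gene, carried much of that sum, at 137 CPM in Foxp2 nuclei and 86.4 CPM in gated nuclei.

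Beyond these lists, 3144 genes reached 50 CPM in either class. Of them, 11 (0.350%) were more than 1 log2 unit higher in gated nuclei in 12 of 12 animals, and 10 were as much lower. The highest ratio belonged to Lypd6b, a modulator of nicotinic receptors, with 64.9 CPM in gated nuclei and 9.78 CPM in the others. Its level was 49.7 CPM in gated nuclei of cluster 3, 130 CPM in those of cluster 6 and 163 CPM in those of cluster 16. Sdk1, a homophilic adhesion molecule of synaptic layers, averaged 860 and 244 CPM, and Chrm2, a muscarinic acetylcholine receptor, 235 and 69.8 CPM. Cdh9, a type II cadherin, averaged 267 and 85.5 CPM, and Rxfp1, a relaxin receptor, 106 and 30.4 CPM. Rxfp1 was also lower in gated nuclei of cluster 3 (57.4 CPM) than in those of clusters 6 (216 CPM) and 16 (347 CPM). Sdk1 had 1055 CPM in gated nuclei of cluster 3, 1350 CPM in those of cluster 6, 639 CPM in those of cluster 16 and 511 CPM in Foxp2 nuclei. Chrm2 and Cdh9 were lower in gated nuclei of cluster 6 (141 and 6.95 CPM) than in those of cluster 3 (317 and 363 CPM) and cluster 16 (313 and 306 CPM). Col11a1 averaged 88.6 and 15.6 CPM, but it ranged from 17.7 to 149 CPM between animals and came from the gated nuclei of cluster 16, where it reached 751 CPM. The lowest ratios were those of Thsd7a (17.0 against 141 CPM), the potassium channel gene Kcnh5 (38.6 against 217 CPM) and the kainate receptor gene Grik1 (15.6 against 92.4 CPM).

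The first question between genotypes was whether Het cortices held a different share of these nuclei. Gated nuclei were 5.98, 8.06 and 6.83% of excitatory nuclei in WT males, 7.81, 6.98 and 8.15% in WT females, 8.77, 7.67 and 8.64% in Het males and 9.32, 9.18 and 8.11% in Het females. The share was 7.30 ± 0.851% in WT and 8.62 ± 0.631% in Het animals (SD, n = 6 each), a difference of 1.32 percentage points (two-sided exact permutation p = 0.0173, 924 relabellings). The ranges overlapped between 7.67 and 8.15%. The difference had the same direction within males (6.96 and 8.36%) and within females (7.65 and 8.87%), where 3 against 3 animals cannot give an exact permutation p below 0.1 and gave 0.2 in both. Without WT male 1 it was 1.05 percentage points (exact permutation p = 0.0281).

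The higher share did not hold without Galnt14. When the gate was set on Dnah14, Blnk and Sulf1 alone with the threshold kept at 4 UMIs, the share was 3.21 ± 0.803% in WT and 3.38 ± 0.763% in Het mice, a difference of 0.17 percentage points (exact permutation p = 0.699). With the threshold also lowered to 2 UMIs it was 8.00 ± 1.13% in WT and 7.71 ± 1.14% in Het mice, a difference of -0.29 percentage points (exact permutation p = 0.641). Taken over all nuclei of cluster 3, which was formed without any of the 4 markers, it was 8.89 ± 0.479% and 9.42 ± 0.696% (difference 0.53, p = 0.147 by the same exact test). Of the excitatory nuclei, 4.74 ± 0.796% in WT and 6.57 ± 0.704% in Het animals had at least 4 UMIs of Galnt14, with an exact permutation p of 0.00433 (0.0173 adjusted over the 4 markers). The corresponding shares were 0.187 and 0.336% for Blnk (adjusted p = 0.0649), 1.38 and 1.48% for Dnah14 (adjusted p = 0.764) and 2.29 and 2.42% for Sulf1 (adjusted p = 0.764), all by exact permutation. Nuclei with at least 3000 UMIs were also thinned to that depth, and the shallower barcodes within the limits, 750 to 2256 per animal, were left out. The share by the full gate was then 3.28 ± 0.413% in WT and 3.99 ± 0.736% in Het mice, with an exact permutation p of 0.0736. This share rested on 20 to 58 thinned gated nuclei per animal. Median depths of gated nuclei were 7297 ± 787 UMIs in WT and 7149 ± 769 in Het mice, with an exact permutation p of 0.684. Without WT male 1 the differences were 0.79 percentage points after thinning (exact permutation p = 0.0671), 0.53 for cluster 3 (p = 0.197), and -0.01 (p = 0.983) and -0.49 (p = 0.481) for the gate without Galnt14 at 4 and at 2 UMIs.

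Galnt14 itself was higher in Het animals in cluster 3 as a whole, where it had selected no nucleus. Its level ranged from 284 through a median of 363 to 424 CPM in WT and from 439 through 459 to 531 CPM in Het animals, so the genotypes did not overlap. Of 8260 genes tested there, 18 (0.218%) were without overlap and higher in Het animals. The log2 fold change was 0.41 with an SE of 0.08 (edgeR quasi-likelihood adjusted p = 0.0468), and 0.37 without WT male 1 (adjusted p = 0.0466). The plot of shares sets this level beside the 3 ways of counting the nuclei. The part of this level in the share of gated nuclei was not tested.

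**Figure D2:**
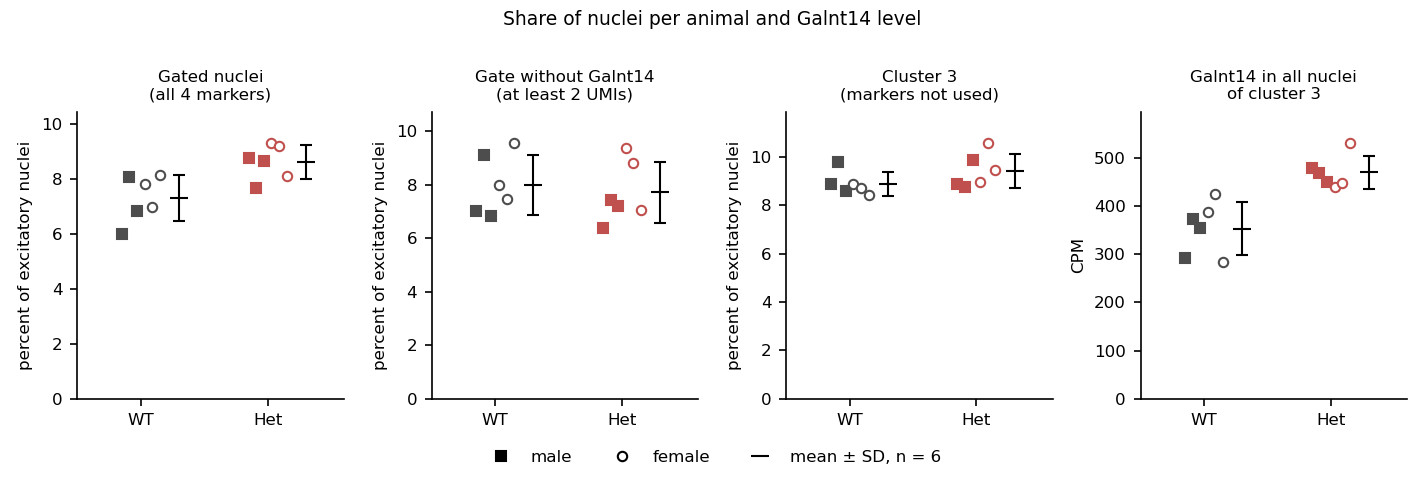
Percent of excitatory nuclei in the gate, in the gate without Galnt14 at a threshold of 2 UMIs and in cluster 3, and the Galnt14 level in all nuclei of cluster 3 in CPM, for each animal (squares males, circles females) with mean and SD of 6 animals. The Het mean is higher in the first panel (8.62 against 7.30%), not in the second (7.71 against 8.00%), and Galnt14 does not overlap between genotypes in the last.

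The second question was which genes differed between Het and WT within the gated nuclei. Counts were summed per animal and tested with edgeR, and a gene was called at an adjusted p under 0.05 with a log2 fold change beyond 0.2 in size. Myt1l ranged from 789 through 875 to 1161 CPM in WT and from 915 through 962 to 1061 CPM in Het gated nuclei (log2 fold change 0.07, SE 0.08, adjusted p = 0.912). The allele is a frameshift, so this level does not check the genotype. Of 8341 genes tested, 4 were called (0.0480%), all of them higher in Het animals: Car12, Olfm1, Kcnip3 and Spred2. In these 12 animals no gene was called lower by edgeR in this fit or by DESeq2. Other settings called lower genes, among them Cdh9 without the filter on low counts (edgeR adjusted p = 0.0494). At an unadjusted p under 0.05 there were 613 genes (7.35%), 328 higher (3.93%) and 285 lower (3.42%). Of the higher ones, 326 were outside the gate, and the other two were Galnt14 and Blnk, whose own UMIs chose these nuclei, so that their difference here is no finding. DESeq2 called 8 genes (0.0959%), all higher, and these were Olfm1, Kcnip3, Spred2, Ntrk2, Slit1, Lingo1, Grik3 and Zmiz1. Without WT male 1 DESeq2 called 7 genes, 5 higher and 2 lower, the lower ones being Gpm6a and Gm49678 (DESeq2 adjusted p = 0.0105 and 0.0129).

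Car12, which encodes the membrane-bound carbonic anhydrase XII, lies at chr9:66713686-66766845 on the plus strand of mm10. It had 23.0, 28.5 and 39.8 CPM in gated nuclei of WT males, 39.0, 34.6 and 24.3 CPM in WT females, 64.5, 63.7 and 56.7 CPM in Het males and 57.0, 43.9 and 64.3 CPM in Het females. Every Het animal lay above every WT animal. The mean was 31.5 ± 7.31 CPM in WT and 58.3 ± 7.94 CPM in Het animals (log2 fold change 0.86, SE 0.14, edgeR adjusted p = 0.0117). Non-overlapping genotypes occurred for 24 genes higher in Het animals (0.288%) and 9 lower (0.108%). The level of Car12 was 57.1 CPM in gated nuclei of cluster 3, 80.0 CPM in those of cluster 16 and 10.9 CPM in those of cluster 6, so it was lowest in the group with the most Hs3st4 and Tle4. Over all nuclei of cluster 3 the log2 fold change was 0.80 (SE 0.15, edgeR adjusted p = 0.0258).

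Olfm1, a secreted olfactomedin-domain glycoprotein of neurons, lies at chr2:28192992-28230736 on the plus strand. It ranged from 72.9 through a median of 91.5 to 114 CPM in WT and from 118 through 137 to 173 CPM in Het animals. The genotypes did not overlap, and the log2 fold change was 0.61 (SE 0.11, edgeR adjusted p = 0.0157). Kcnip3, also known as DREAM or calsenilin, is a calcium-binding auxiliary subunit of A-type potassium channels and a transcriptional repressor, at chr2:127456498-127522094 on the minus strand. It ranged from 110 through 127 to 143 CPM in WT and from 132 through 190 to 199 CPM in Het animals, with Het female 2 inside the WT range (log2 fold change 0.51, SE 0.10, edgeR adjusted p = 0.0259). The short RNA gene Gm22613 lies inside it on the same strand, at 9.47 CPM.

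Spred2, an inhibitor of Ras and ERK signalling, lies at chr11:19924375-20024026 on the plus strand. It ranged from 124 through 133 to 154 CPM in WT and from 147 through 186 to 218 CPM in Het animals, and WT male 1 and Het male 1 overlapped (log2 fold change 0.47, SE 0.09, edgeR adjusted p = 0.0418). Among the clusters the levels of these 3 genes differed in order. Kcnip3 had 310 CPM in gated nuclei of cluster 6, 131 CPM in cluster 3 and 31.2 CPM in cluster 16, Olfm1 70.4, 141 and 87.1 CPM, and Spred2 129, 162 and 137 CPM. In all nuclei of cluster 3 their log2 fold changes were 0.40 for Olfm1 (adjusted p = 0.201), 0.40 for Kcnip3 (adjusted p = 0.113) and 0.42 for Spred2 (adjusted p = 0.0799), all by edgeR. Leaving out Het female 3 removed all 4 calls, with adjusted p of 0.0625 for Car12 and 0.105 for Olfm1. Car12 was called in 11 of 12 fits that left out an animal, Olfm1 in 10, Kcnip3 in 4 and Spred2 in 2, and without WT male 1 the calls were Olfm1, Car12 and Spred2.

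The promoters of the pair of called genes without overlap are shown because MYT1L binds an AAGTT core, and the 250 bases before the RefSeq start (GRCm38.p6) were searched for AAGTT on either strand. The Car12 window, chr9:66713436-66713685 on the plus strand, held none. The Olfm1 window, chr2:28192843-28193092 on the plus strand, held 1, in capitals as its reverse complement. The start of Olfm1 in the annotation used for its position lies before the RefSeq start, so the last 101 bases of this window are inside the gene as placed above, and the match, which begins at base 28193031, is among them.
Car12 promoter: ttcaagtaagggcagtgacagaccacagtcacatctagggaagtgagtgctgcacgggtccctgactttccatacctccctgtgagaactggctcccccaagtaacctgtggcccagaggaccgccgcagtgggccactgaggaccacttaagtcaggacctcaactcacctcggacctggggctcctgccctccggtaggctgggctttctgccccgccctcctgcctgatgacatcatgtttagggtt
Olfm1 promoter: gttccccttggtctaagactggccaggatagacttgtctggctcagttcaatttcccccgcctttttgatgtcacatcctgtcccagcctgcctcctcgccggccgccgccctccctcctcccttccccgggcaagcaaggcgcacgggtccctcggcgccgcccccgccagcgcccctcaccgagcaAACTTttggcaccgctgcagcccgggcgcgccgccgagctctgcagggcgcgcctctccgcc
AAGTT on either strand was present in 35.3% of 32851 promoter windows of this length and in 26.2% of the windows of genes tested here. The windows of Kcnip3, Spred2, Galnt14 and the second start of Olfm1 held none. A match is a run of letters and not a measured binding site.

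**Figure D3:**
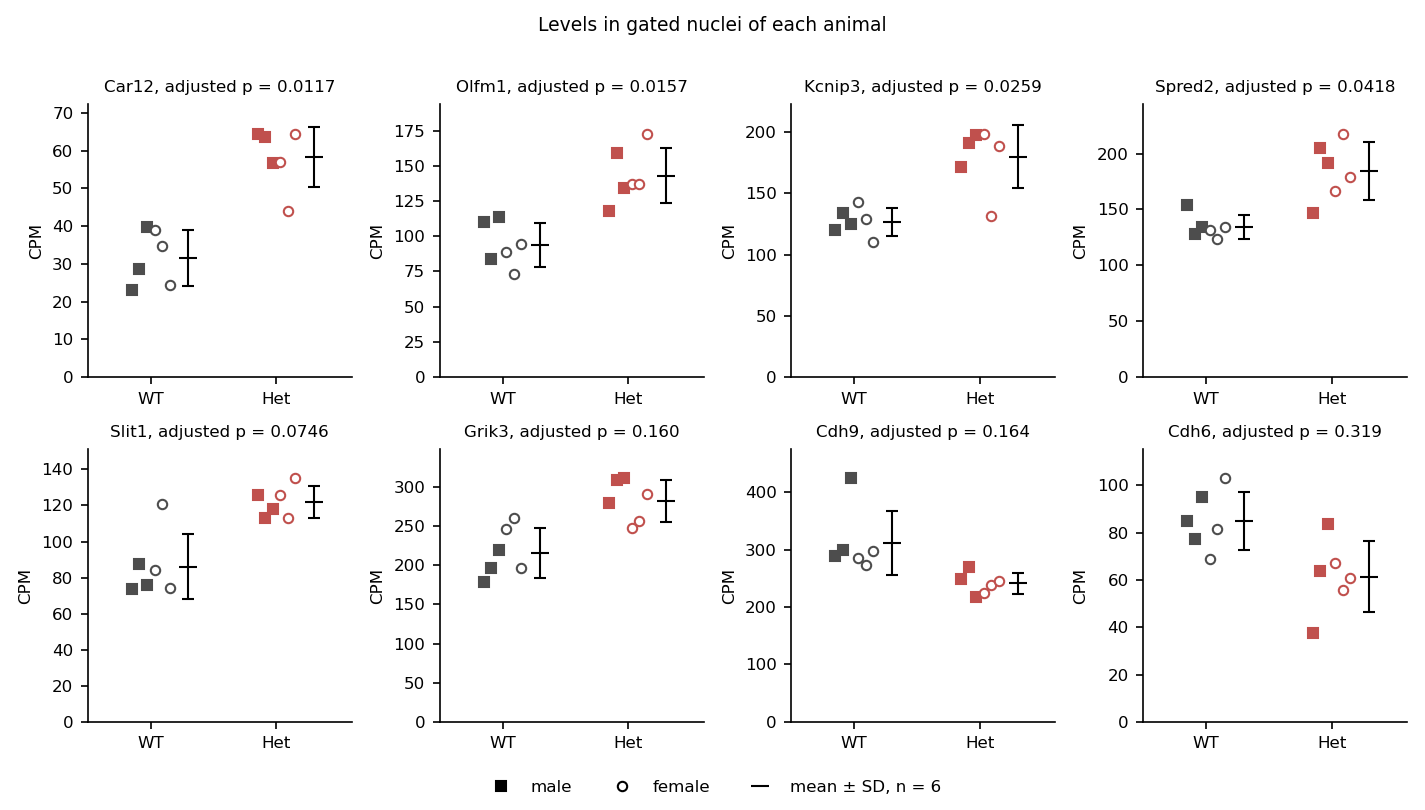
CPM in the gated nuclei of each animal (squares males, circles females) with mean and SD of 6 animals for the 4 called genes and for Slit1, Grik3, Cdh9 and Cdh6. Car12 and Olfm1 are without overlap and higher in Het animals, and Cdh9 is without overlap and lower but was not called.

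Cluster 3 gave further calls. Over all its 2132 nuclei, 5 of 8260 genes were called (0.0605%), 4 of them higher (0.0484%) and 1 lower (0.0121%) in Het animals. The lower one was Fut9, a fucosyltransferase that makes the Lewis X glycan. It ranged from 645 through 684 to 793 CPM in WT and from 414 through 510 to 609 CPM in Het animals, without overlap (log2 fold change -0.44, SE 0.08, edgeR adjusted p = 0.0258). Besides Car12 and Galnt14, the higher ones were Ccdc3, a secreted coiled-coil protein, and Ubash3b, a phosphatase that restrains tyrosine kinase signalling. Ccdc3 averaged 17.5 ± 8.39 CPM in WT and 39.9 ± 11.4 CPM in Het animals (log2 fold change 1.21, SE 0.23, edgeR adjusted p = 0.0402), and its ranges overlapped between 26.0 and 32.8 CPM. Ubash3b averaged 57.5 ± 17.6 and 92.3 ± 11.2 CPM (log2 fold change 0.69, SE 0.14, edgeR adjusted p = 0.0402). In the 1046 gated nuclei of cluster 3 alone, 1 of 6303 genes was called (0.0159%), Rcan2, a calcineurin inhibitor, with a log2 fold change of 1.01 (edgeR adjusted p = 0.0244). WT male 1 changed the number of calls. Without it, 20 of 8490 genes were called over all nuclei of cluster 3, 17 higher and 3 lower. They included all 5 named above, with Spred2, Nnat, Rcan2, Zmiz1 and Ntng2 among the further higher ones, and the further lower ones were Kcnt2 and Cntn3 (edgeR adjusted p = 0.0127 and 0.0260). In gated nuclei of cluster 3 there were 3 without it (Rcan2, Nnat and Ntng2).

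The genes with the next smallest p did not pass. Slit1, a secreted axon repellent, ranged from 73.6 through 79.9 to 121 CPM in WT and from 113 through 122 to 135 CPM in Het animals (log2 fold change 0.50, SE 0.11, edgeR adjusted p = 0.0746). Among the genes lower in Het animals, Cdh9 had the smallest p. It ranged from 273 through 293 to 424 CPM in WT and from 218 through 242 to 270 CPM in Het animals, without overlap (log2 fold change -0.38, SE 0.09, edgeR adjusted p = 0.164). Cdh9 was also among the genes that stood highest in these nuclei. The loci Gm49678, C87436 and Gm32444 were next among those described here, with log2 fold changes of -0.35, -0.86 and -0.63 and edgeR adjusted p of 0.197, 0.269 and 0.311. Gm49678 was called with a marker sum of at least 3 (edgeR adjusted p = 0.0395).

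**Figure D4:**
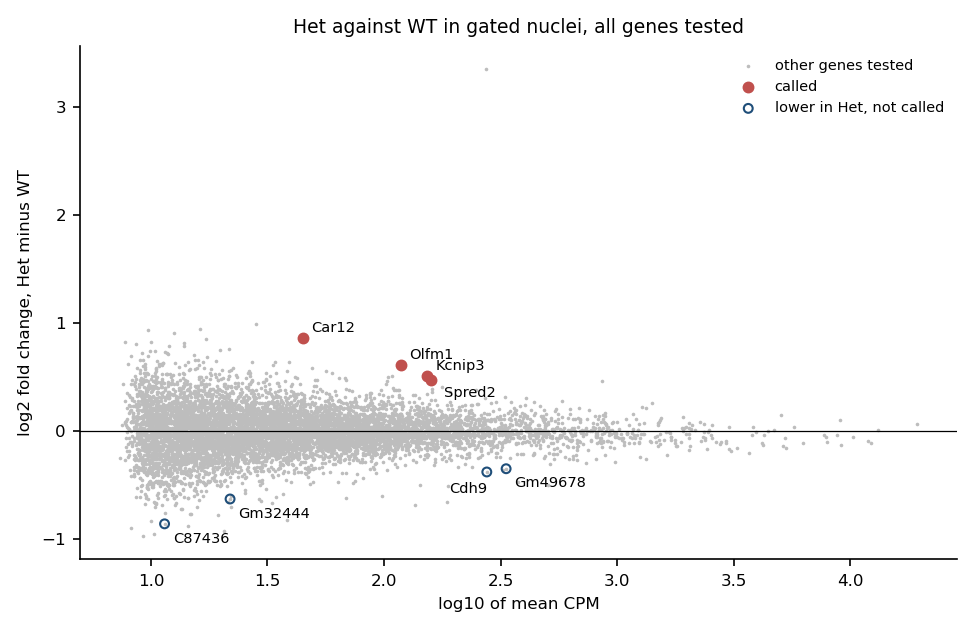
Log2 fold change of Het against WT in gated nuclei (vertical axis) against the log10 of mean CPM for 8341 genes. The 4 called genes (red) lie above 0, and Cdh9, Gm49678, C87436 and Gm32444, lower in Het animals (open circles), were not called.

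Lists of gene groups had log2 fold changes on both sides of 0. Over all 8341 genes, 48.2% lay above 0, the median on the log2 scale was -0.01, and 3.93% were higher and 3.42% lower at an unadjusted p under 0.05, against which the counts at that p in each list are to be read. The 24 genes that the study names at P21 were chosen on these same animals and are no independent evidence of direction. The study names some of them as higher and some as lower, so their pooled count and median do not speak to direction. All 24 were tested and none was called, 12 were above 0, and the median was -0.03. At an unadjusted p under 0.05, 6 of them were lower and 2 higher, where 285 (3.42%) and 328 (3.93%) of all 8341 genes were. The lower ones were the type II cadherins Cdh9 and Cdh6, the Eph receptors Epha3, Epha5 and Epha7 and the glutamate receptor Grm3, and the higher ones Pak1, a kinase of the actin cytoskeleton, and Smurf1, a ubiquitin ligase. Cdh6 averaged 85.2 ± 12.3 CPM in WT and 61.4 ± 15.1 CPM in Het animals (log2 fold change -0.48, edgeR adjusted p = 0.319).

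Adhesion and guidance genes held values in both directions. Of 13 cadherins tested, 3 were lower and 2 higher at an unadjusted p under 0.05, against 3.42% and 3.93% of all genes tested. Their median was -0.09 and none was called. Of 11 Eph receptors and ephrins tested, 4 were lower (Epha3, Epha5, Epha7 and Efna5) and 1, Ephb2, was higher at that p, again against 3.42% and 3.93% of all genes, with a median of 0.03. Epha3 had 265 ± 23.7 CPM in WT and 212 ± 47.4 CPM in Het animals (log2 fold change -0.33, edgeR adjusted p = 0.507). Among 26 tested genes of Slit, Robo, netrin and semaphorin guidance, Slit1 and Nrp2 were higher and the netrin receptor gene Unc5c lower at that p, 18 were above 0, and the median was 0.05. The 44 synaptic organizers had a median of -0.06, with 4 higher and 3 lower. They included Sdk2, with 229 ± 24.0 CPM in WT and 271 ± 15.5 CPM in Het animals (log2 fold change 0.25, edgeR adjusted p = 0.412), and Cntnap5a, with 245 ± 45.4 and 199 ± 18.4 CPM (log2 fold change -0.31, edgeR adjusted p = 0.418).

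Channels and receptors gave 1 call, Kcnip3, among the 6 auxiliary subunits of A-type channels, whose median was -0.04. Its relative Kcnip4, with 12256 ± 243 CPM in WT and 11494 ± 639 CPM in Het animals, had a log2 fold change of -0.09 (edgeR adjusted p = 0.752). Of 25 potassium channel genes, 16 were above 0 and the median was 0.03. Kcnd3, a pore-forming A-type subunit, had 274 ± 40.2 and 329 ± 47.0 CPM (log2 fold change 0.27, edgeR adjusted p = 0.513), and the sodium-activated channel gene Kcnt2 had 731 ± 113 and 611 ± 77.0 CPM (log2 fold change -0.27, edgeR adjusted p = 0.476). Scn1a, a sodium channel, stood at 230 ± 38.4 and 196 ± 7.25 CPM (log2 fold change -0.23, edgeR adjusted p = 0.547), and the list of 6 sodium channels had a median of -0.05. The 16 calcium channel genes had a median of 0.01, with Cacng2, Cacna1i and Cacna1g higher at an unadjusted p under 0.05.

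Among glutamate receptors, the kainate receptor gene Grik3 had 216 ± 31.5 CPM in WT and 282 ± 26.6 CPM in Het animals (log2 fold change 0.38, edgeR adjusted p = 0.160), and it was called by DESeq2 (adjusted p = 0.0386). The 11 AMPA and kainate receptor genes had a median of -0.01 and the 4 NMDA receptor genes one of 0.05. For 6 metabotropic receptor genes, Grm3 and Grm5 among them, the median was -0.14. Only 1 of 10 GABA-A receptor genes was above 0, with a median of -0.03. Of 34 presynaptic release genes, 21 were above 0 and the median was 0.03. The neuronal pentraxin gene Nptx1 had 57.3 ± 10.8 CPM in WT and 78.6 ± 11 CPM in Het animals (log2 fold change 0.49, edgeR adjusted p = 0.222).

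Identity and maturation genes gave no call. Of 26 layer and projection transcription factors, Mef2c and Nfia were lower at an unadjusted p under 0.05, and the median was 0.01. Mef2c, a factor of postmitotic excitatory neurons, had 649 ± 88.9 CPM in WT and 551 ± 45.3 CPM in Het animals (log2 fold change -0.24, edgeR adjusted p = 0.462). The 16 tested immature neuron genes had a median of -0.02, and Nnat, an imprinted gene of developing neurons, had 31.8 ± 9.15 and 46.3 ± 6.47 CPM (log2 fold change 0.64, edgeR adjusted p = 0.160). Of 9 immediate early genes, 8 were above 0 (88.9%) and the median was 0.21, with none at an unadjusted p under 0.05. They included Egr3 (log2 fold change 0.40, edgeR adjusted p = 0.680) and Homer1 (0.27, edgeR adjusted p = 0.752). The peptide gene Cck had 12.1 ± 2.39 and 18.8 ± 2.53 CPM, without overlap (log2 fold change 0.57, edgeR adjusted p = 0.475), in a list of 6 with a median of 0.09. In the Myt1 family, Myt1 had a log2 fold change of -0.42 and St18 one of 0.43 (edgeR adjusted p = 0.707 and 0.824).

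**Figure D5:**
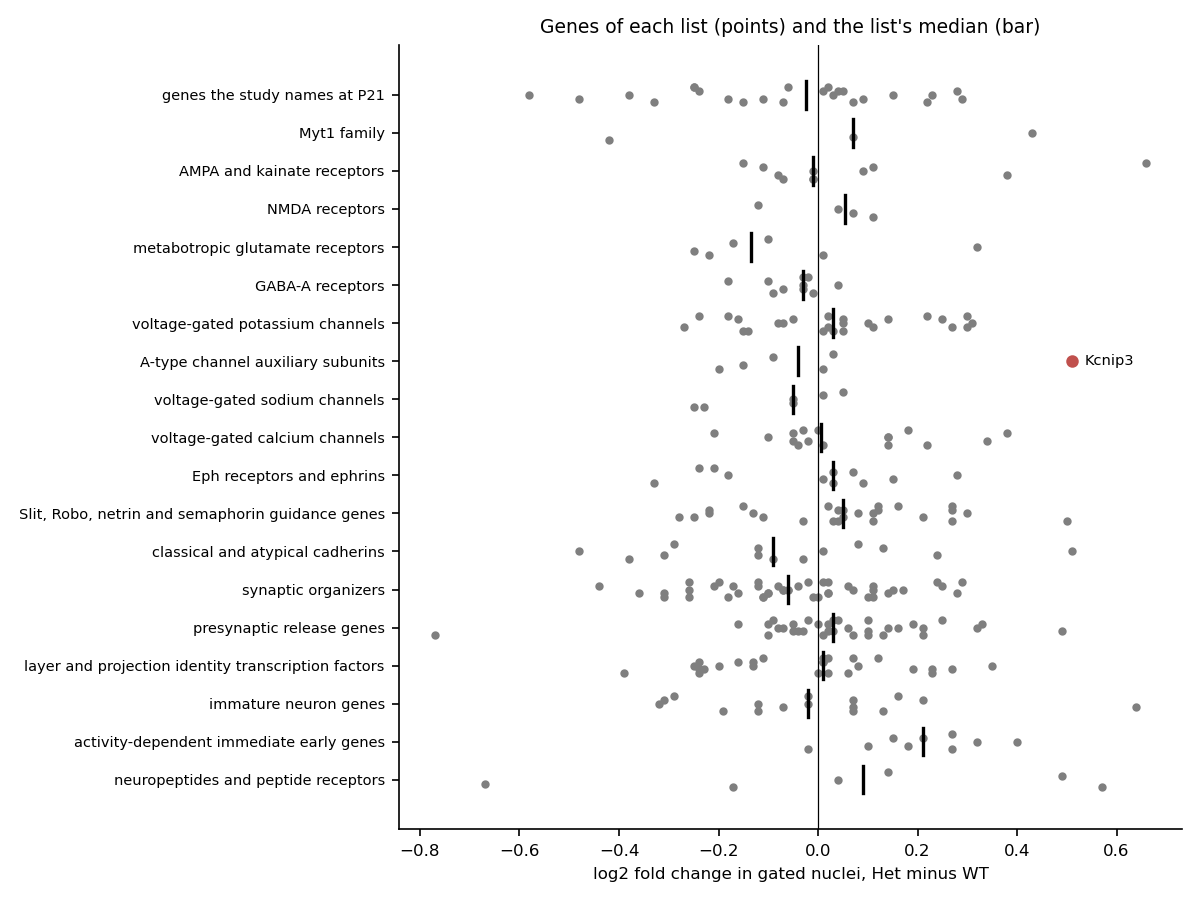
Log2 fold change of Het against WT in gated nuclei for the tested genes of the lists described (points) with each list's median (bar). Kcnip3 (red) is the only called gene, and the medians run from -0.14 for metabotropic glutamate receptors to 0.21 for immediate early genes.

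RNA of other cell types in the gated nuclei overlapped between genotypes for each list examined. The summed level of 5 oligodendrocyte genes ranged from 53.0 to 154 CPM in WT and from 86.4 to 139 CPM in Het animals, and that of 5 microglial genes from 11.3 to 21.4 and from 9.80 to 14.1 CPM. The 4 astrocyte genes ranged from 7.07 to 17.9 and from 6.76 to 21.9 CPM, and the 5 GABAergic genes from 0 to 9.01 and from 0.548 to 5.68 CPM. The 5 corticothalamic genes were higher, from 758 to 1549 and from 680 to 1300 CPM, and the 6 claustrum and Car3 genes, of which 5 were measured, ranged from 259 to 634 and from 362 to 586 CPM. Of the other markers, the endothelial gene Cldn5 was at 0 in every animal.

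The third question was whether the genotype effect in gated nuclei differed from that in other excitatory neurons. Comparison nuclei were gated in the same way on Foxp2 (1557 nuclei), Rorb (1686) or Cux2 (679). No gene passed the test of the difference by edgeR, with 0 of 10138 genes against Foxp2 nuclei, 0 of 9835 against Rorb nuclei and 0 of 8455 against Cux2 nuclei. At an unadjusted p under 0.05 there were 457 (4.51%), 509 (5.18%) and 359 (4.25%). Within Foxp2 nuclei alone, 13 of 6784 genes were called (0.192%), 10 higher (0.147%) and 3 lower (0.0442%) in Het animals. Within Rorb nuclei 6 of 7274 were called (0.0825%), 4 higher (0.0550%) and 2 lower (0.0275%), and within Cux2 nuclei 0 of 4907. The nearest to passing was Dcps, a decapping enzyme gene, against Rorb nuclei, with a difference of -1.76 on the log2 scale (edgeR adjusted p = 0.134). Ccdc3 followed with a log2 fold change of 0.99 in gated nuclei and -0.05 in Rorb nuclei (difference 1.03, SE 0.22, edgeR adjusted p = 0.176). Kcnt2 had -0.27 in gated nuclei and -0.66 in Foxp2 nuclei (difference 0.38, SE 0.10, edgeR adjusted p = 0.812), and the synaptic adhesion gene Lrrc4c -0.07 in gated and 0.35 in Cux2 nuclei (difference -0.42, SE 0.09, edgeR adjusted p = 0.284).

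For no called gene did the difference from these classes pass after adjustment. Kcnip3 had a log2 fold change of 0.50 in Foxp2 nuclei (SE 0.11, edgeR adjusted p = 0.0480), 0.30 in Rorb nuclei and 0.13 in Cux2 nuclei. Spred2 had 0.36, 0.34 and 0.47 in the same order, and Olfm1 0.18, 0.24 and 0.45. The differences from the gated nuclei were between -0.02 and 0.35 for Kcnip3, 0.00 and 0.10 for Spred2 and 0.17 and 0.43 for Olfm1, each with an SE of 0.11 to 0.19 and an edgeR adjusted p of at least 0.842. Before adjustment Olfm1 had the smallest p, 0.00254 against Foxp2 nuclei (difference 0.43, SE 0.14) and 0.00907 against Rorb nuclei (difference 0.35, SE 0.13). Car12 was too low to be tested in those classes alone, and its differences from the gated nuclei were poorly determined, at -0.21 against Foxp2 (SE 0.50), 0.54 against Rorb (SE 0.62) and 0.31 against Cux2 nuclei (SE 0.50), with an edgeR adjusted p of at least 0.994.

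The last question was whether the genotype effect differed between the sexes. No gene of 9239 passed the interaction by edgeR, with 480 (5.20%) at an unadjusted p under 0.05, and DESeq2 called 3 (0.0325%), Cdh18, Hs3st4 and Thsd7b. Without WT male 1 edgeR again called 0, and DESeq2 called the same 3. Hs3st4, a heparan sulfate sulfotransferase, had a log2 fold change of 0.26 in males and -0.80 in females (difference -1.07, SE 0.19, edgeR adjusted p = 0.107, DESeq2 adjusted p = 0.00190). Thsd7b, a thrombospondin-repeat protein, had 0.53 and -0.30 (difference -0.83, SE 0.17, edgeR adjusted p = 0.107, DESeq2 adjusted p = 0.0392). For Cdh18, a type II cadherin, the difference was -1.35 (DESeq2 adjusted p = 0.000167). All 3 were concentrated in the gated nuclei of cluster 6, with 4334 CPM of Hs3st4, 1450 CPM of Thsd7b and 6601 CPM of Cdh18, against 53.3, 318 and 423 CPM in those of cluster 3. The share of gated nuclei in cluster 6 was 10, 9.03 and 11.2% in WT males and 14.0, 14.8 and 16.7% in Het males, but 14.0, 15.9 and 21.5% in WT females and 13.8, 7.19 and 9.18% in Het females. The part of these shares in the sex difference was not tested. Over the 9239 genes, 27 (0.292%) had all Het males above all WT males and all Het females below all WT females, and 22 (0.238%) had the reverse.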

How the data were processed

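Nuclei of 12 P21 cortices were profiled by combinatorial barcoding. The authors used ScaleRna to align reads to mm10 and to count UMIs, and the deposited matrices hold expected counts per gene and barcode, in which a UMI that matches several genes is divided among them, without normalization (92.3% of entries above 0 were whole numbers). The submitters' processing notes name Seurat 4.3.0 and DESeq2 1.38.3. According to the study's methods, multiplets were removed with DoubletFinder; whether this was done before deposit, and the strand setting of the counting, are not given in the sources used here. Barcodes above the study's upper limits (6000 UMIs, 3000 genes) were present and kept (1262 gated nuclei, 67.4%, were over 6000 UMIs), and no doublets were removed in the main analysis (50 gated nuclei were among the 5% highest Scrublet scores). The viral transcript TDTOMATO entered neither library sizes nor tests. Genotype, sex and replicate number came from the sample titles.

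Counts of gated nuclei were summed per animal, rounded and tested with edgeR 4.0.16 in R 4.3.3 (TMM, filterByExpr, robust quasi-likelihood fit, genotype as the only term, Benjamini-Hochberg adjustment over all genes tested). A gene was called when its adjusted p was under 0.05 and its log2 fold change exceeded 0.2 in size. Differences between nucleus classes were tested as interactions with animal as a block, and sex by genotype as an interaction. DESeq2 1.42.0 was an alternative. Shares were compared by two-sided exact permutation over animals. Excitatory nuclei were clustered with scanpy 1.11.5 and leidenalg 0.10.2 from 3000 variable genes, 50 principal components and 20 neighbours at a resolution of 1. Ratios against other excitatory nuclei used log2 of CPM + 5. Binomial intervals cover counting error only.

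The gate, the gene lists and the tests were chosen with earlier results of these data known. The genes named were the genes of the gate and Myt1l, called genes or the 5 with the smallest p per direction, the 2 with the smallest p per list, and the 5 with the smallest p per interaction. Ntrk2, Lingo1, Zmiz1, Cdh18, further list members at an unadjusted p under 0.05, genes called only in cluster 3, genes called only without the filter on low counts, at other marker sums, with sex as a term or without WT male 1, Sgsm1 and Mid1 were named after their values were seen. Results for some genes within these rules are not reported here. Alternatives were another scaling, no filter on low counts, the study's limits, removal of high Scrublet scores, marker sums of 3 and 6, thinning, sex or replicate as a term, each animal left out, and, chosen after seeing the data, restriction to cluster 3, all nuclei of cluster 3, relabelling within sexes, further fits without WT male 1 and a gate without Galnt14 at thresholds of 2 and 4 UMIs. The fits were tested on simulated counts with means and dispersions taken from these data. Within gated nuclei 89.2% of genes changed by log2 1 and 42.7% of those changed by log2 0.5 were recovered, with 6 false calls. In the interaction with Foxp2 nuclei 65.5% of genes changed by log2 1 in gated nuclei alone were recovered, with 5 false calls.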

Additional observations from a re-analysis of the deposited data

Results flagged for a closer look

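A single animal lay far from the other 5 of its genotype, by Dixon's 95% criterion, in 9 of 132 groups of values checked, and chance flags about 1 in 20. WT male 1 had the lowest median depth of gated nuclei, 5817 UMIs with the next animal at 7344, and the highest WT level of Spred2, 154 CPM with the next at 134. WT female 2 had the highest WT levels of Slit1 (121 CPM, next 87.4) and Nfia (357 CPM, next 298). WT male 3 had the highest level of Cdh9 (424 CPM, next 299). Het male 1 had the highest Het level of Grid1 (805 CPM, next 640), Het female 1 of Grin1 (307 CPM, next 250) and Het female 2 of Enox1 (1363 CPM, next 1254), and Het male 2 had the lowest of Grm5 (1870 CPM, next 2267).

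The share of gated nuclei in cluster 6 was higher in every Het male than in every WT male and lower in every Het female than in every WT female, with a female minus male difference of -12.2 percentage points in the genotype effect, and that difference was not tested. For 3 of the genes named here all 3 Het males lay above all 3 WT males while all 3 Het females lay below all 3 WT females, a pattern seen in 27 of 9239 genes (0.292%). The female minus male genotype effect was -0.83 on the log2 scale for Thsd7b (edgeR adjusted p = 0.107), -1.05 for Myo1d and -0.68 for Adcy2 (edgeR adjusted p = 0.361 each). None passed this test by edgeR. Like Thsd7b, Myo1d and Adcy2 were higher in gated nuclei of cluster 6 (105 and 770 CPM) than in those of cluster 3 (44.3 and 233 CPM), and the part of the cluster 6 share in these differences was not tested.

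TDTOMATO, the transcript of the injected vector, belonged to no comparison. At least 1 UMI of it was found in 59.7% of gated nuclei (1117 of 1872, Wilson 95% interval 57.4 to 61.9%), in 59.4% of the other excitatory nuclei and in 49.2% of nuclei without Slc17a7, at median depths of 7290, 6039 and 4351 UMIs. The share ranged from 44.9 to 75.3% in WT and from 51.5 to 69.4% in Het animals.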

How the results depend on the processing

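The 4 called genes became 34 without a filter on low counts, 0 of 2273 genes tested within the study's limits on UMIs and genes (which left 423 of the 1872 gated nuclei), 9 with a marker sum of at least 3, 1 (Rcan2) in gated nuclei of cluster 3, 2 (Car12 and Sgsm1) with the gate without Galnt14 at a threshold of 4 UMIs, 14 with that gate at 2 UMIs, and 8 with DESeq2. The 34 include Galnt14 (edgeR adjusted p = 0.0344), a gene of the gate whose difference in these nuclei is no finding. The 4 genes called in the main fit include no gene of the gate. Genes lower in Het animals were 6 of the 34 (Cdh9 among them), 1 of the 9 at a marker sum of 3 (Gm49678), 1 of 4 at a marker sum of 6 (Cntnap5a), 1 of the 14 (Cdh6), 1 of 4 with sex as a term (Pappa2) and 2 of the 9 without WT male 2. With 1 animal left out the count ran from 0 (without Het female 3) to 9 (without WT male 2). It was 2 without WT male 3, WT female 2, Het male 3 or Het female 1. Over the other settings Car12 was called in 11 of 12, Kcnip3 in 9 of 14, Olfm1 in 8 of 14 and Spred2 in 6 of 14, and none of the 4 changed sign. Car12 has 12 settings because it had no adjusted p in DESeq2 and no result within the study's limits. Within those limits the other called genes did not pass, with edgeR adjusted p of 0.649 for Olfm1, 0.802 for Kcnip3 and 0.955 for Spred2. The difference in share of 1.32 percentage points was 0.71 after thinning (exact permutation p = 0.0736), 1.00 for gated nuclei of cluster 3 (p = 0.0519), 0.53 for all nuclei of cluster 3 (p = 0.147), and 0.17 (p = 0.699) and -0.29 (p = 0.641) for the gate without Galnt14 at thresholds of 4 and 2 UMIs. The difference kept its side of the threshold at 0.73 within the study's limits (p = 0.0108), 0.62 of all barcodes within the limits (p = 0.00433), 1.33 without high Scrublet scores (p = 0.0108), and 1.39 and 1.09 with marker sums of 3 and 6 (p = 0.0130 and 0.0281), all by exact permutation. It ran from 1.05 to 1.5 with 1 animal left out. The cause of these changes was not tested. The sex interaction gave 22 calls without a filter and 3 with DESeq2. The interaction counts of 0 became 4 (Rorb nuclei) and 1 (Cux2 nuclei) without a filter and 10 for Cux2 nuclei within the study's limits, and ran from 0 to 1, 0 to 2 and 0 to 1 with 1 animal left out for Foxp2, Rorb and Cux2 nuclei. Those settings give 1 call for Foxp2 nuclei without WT male 2, for Cux2 nuclei without WT male 2, and for Rorb nuclei 2 without WT male 1 and 1 each without WT male 3, WT female 1 and WT female 3.

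Animals share replicate numbers within a sex. Correlations of same-numbered WT and Het animals ran from -0.102 to 0.0964 over 6 pairs and gave no sign of pairing. With 3 animals per sex and genotype they cannot exclude it. With a replicate block edgeR still made 4 calls (Olfm1, Car12, Kcnip3 and Pappa2, the last lower in Het, with Spred2 at an adjusted p of 0.104), and the share had an exact sign-flip p of 0.125 with 4 of 6 pairs higher in Het. The gated nuclei of an animal numbered 70 to 247, and genes beyond the 8341 that passed the filter on low counts were not tested.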

Other observations

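Mid1, an X-linked ubiquitin ligase, had 2200 CPM in gated nuclei of Het female 1 and 602 CPM in those of Het female 3, against 25.5 to 65.5 CPM in the other 10 animals. Over all nuclei within the limits its level was 2080 and 588 CPM in these animals and 35.6 to 66.3 CPM in the others. It was not called (log2 fold change 3.35, edgeR adjusted p = 0.554).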
